A study of Homo sapiens with 6 samples.

Results

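BT20 is an established human cell line derived from a triple negative breast cancer, a tumour class that lacks estrogen receptor, progesterone receptor and ERBB2 amplification. The account covers the baseline transcriptome of control BT20 cells, defined as the 3 libraries labelled shControl of the 6 libraries in the series. These cells carry the control hairpin vector that the labels name pLK0-shControl, received no further treatment and were grown in DMEM/F12 with 10% fetal bovine serum. The other 3 libraries carry the hairpin shCK5-22 against cytokeratin 5, and none of their values was used. The control cells are therefore BT20 with a hairpin vector, not the parental line, and they represent 1 line and 1 control hairpin. The labels do not say whether the replicates were separate cultures, so each SD measures the spread between libraries, which may be technical.

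Keratins are the intermediate filament proteins of epithelial cells and work as pairs of a type II and a type I chain. KRT8 and KRT18 form the usual pair of simple and luminal epithelium, whereas KRT5 pairs with KRT14 in basal cells and KRT17 marks basal-like breast cancers. EGFR, a receptor tyrosine kinase for ligands such as amphiregulin and TGF-alpha, is a common feature of basal-like breast cancers, and the BT20 line is known for a high level of it.

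Total counts were 47622067, 65429616 and 62581438 in replicates 1, 2 and 3, after 27 of 56505 rows with a date in place of a gene symbol had been left out. Levels are given as CPM, counts per 1000000 counts of a library, and for any ordering of genes as TPM, counts per kilobase of merged exons scaled to the same total in each library. A gene counted as detected at a mean of at least 1 CPM. By that rule 13519 rows were detected, among them 11505 of 19208 protein-coding genes (59.9%), and 3558 protein-coding genes (18.5%) were at 0 in every library. The share of 59.9% is the background for each count of detected members of a protein-coding list below. The median protein-coding gene stood at 3.77 TPM. Of all counts, 88.6% ± 0.14 (SD, n = 3) came from nuclear protein-coding genes, 6.86% ± 0.107 from the 13 mitochondrially encoded mRNAs and 3.61% ± 0.0908 from cytosolic ribosomal protein genes. A count of 3 in 1 library corresponds to between 0.0459 and 0.063 CPM, and this floor covers counting error only.

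A zero in this table is not always a silent gene. Among protein-coding genes whose exon bases all lie inside the span, from start to end, of another annotated gene, 1577 of 1734 (90.9%) were at 0. The share was 1397 of 9392 (14.9%) among genes with no such bases and 136 of 4680 (2.91%) among genes with some but under 25%. It was 631 of 650 (97.1%) where all bases were inside another gene but the exons of the inner gene met no exon of another gene. Genes that nearly every cell uses were among the zeros: EEF1G, a translation elongation factor, TUBA1B, an alpha-tubulin, and TMSB10, an actin-binding thymosin, were listed at 0 in all 3 libraries. Of the cytosolic ribosomal protein genes, 7 of the 9 with at least 95% shared bases were at 0, against 0 of the 59 with under 25%. Absence is therefore described below only for genes with under 25% shared bases, 14072 in number, of which 1533 (10.9%) were at 0. No source used here says how reads in overlapping genes were counted, and its part in the zeros was not tested.

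**Figure D1:**
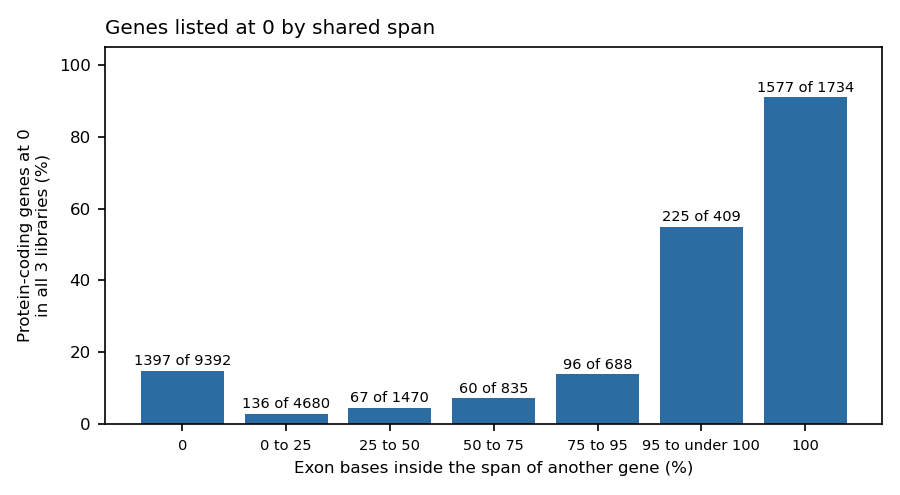
Share of protein-coding genes at 0 counts in all 3 shControl libraries (y axis, %) by the share of a gene's exon bases inside the span of another gene (x axis, %, GENCODE release 29; 0 to 25 means above 0 and under 25), with the numbers of genes above the bars. The bar at 100% reaches 90.9%, and the bars at 0% and from 0 to 25% stand at 14.9% and 2.91%.

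The labelled cell type was first checked against its markers. The 5 genes chosen as markers, KRT5, KRT8, KRT18, KRT17 and EGFR, were each far above the detection level in every library. KRT5 (chromosome 12, 52514575 to 52520687, GRCh38) stood at 232.8, 245.8 and 246.2 CPM in replicates 1, 2 and 3. KRT8 (chromosome 12, 52897187 to 52949954) stood at 3789.9, 3899 and 3808 CPM and KRT18 (chromosome 12, 52948871 to 52952901) at 1604, 1665 and 1633 CPM. The 3 libraries lay close together for each of these genes, with replicate 1 the lowest for all 3. KRT17 (chromosome 17, 41619441 to 41624842) stood at 229.3, 246.7 and 232.5 CPM, and EGFR (chromosome 7, 55019021 to 55211628) at 1504, 1433 and 1514 CPM. EGFR was lowest in replicate 2, where KRT17 was highest.

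Markers of other cell types were at or near 0 with a few exceptions. Of 15 leukocyte markers 1 was detected, ITGB2, an integrin chain of white blood cells, at 1.1 ± 0.295 CPM, and the whole list summed to 3.66 CPM. Of 10 fibroblast markers 2 were detected: COL1A1, a collagen I chain, at 32.2 ± 0.806 CPM and FAP at 1.6 CPM. Its partner chain COL1A2 stood at 0.207 CPM and DCN, the proteoglycan decorin, at 0.0107 CPM. Of 8 endothelial markers 2 were detected, and both are junction proteins. CDH5, VE-cadherin, stood at 23.98, 19.3 and 20.7 CPM and PECAM1 at 6.47, 3.18 and 5.51 CPM. The other endothelial markers were low, with VWF at 0.626 CPM and KDR at 0.222 CPM. None of 5 adipocyte markers was detected. Of 32 genes of other organs 2 were detected, the synaptic vesicle gene SYP at 2.13 CPM and MBP, known for myelin, at 34.8 ± 0.329 CPM with 30.6% of its bases shared.

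**Figure D2:**
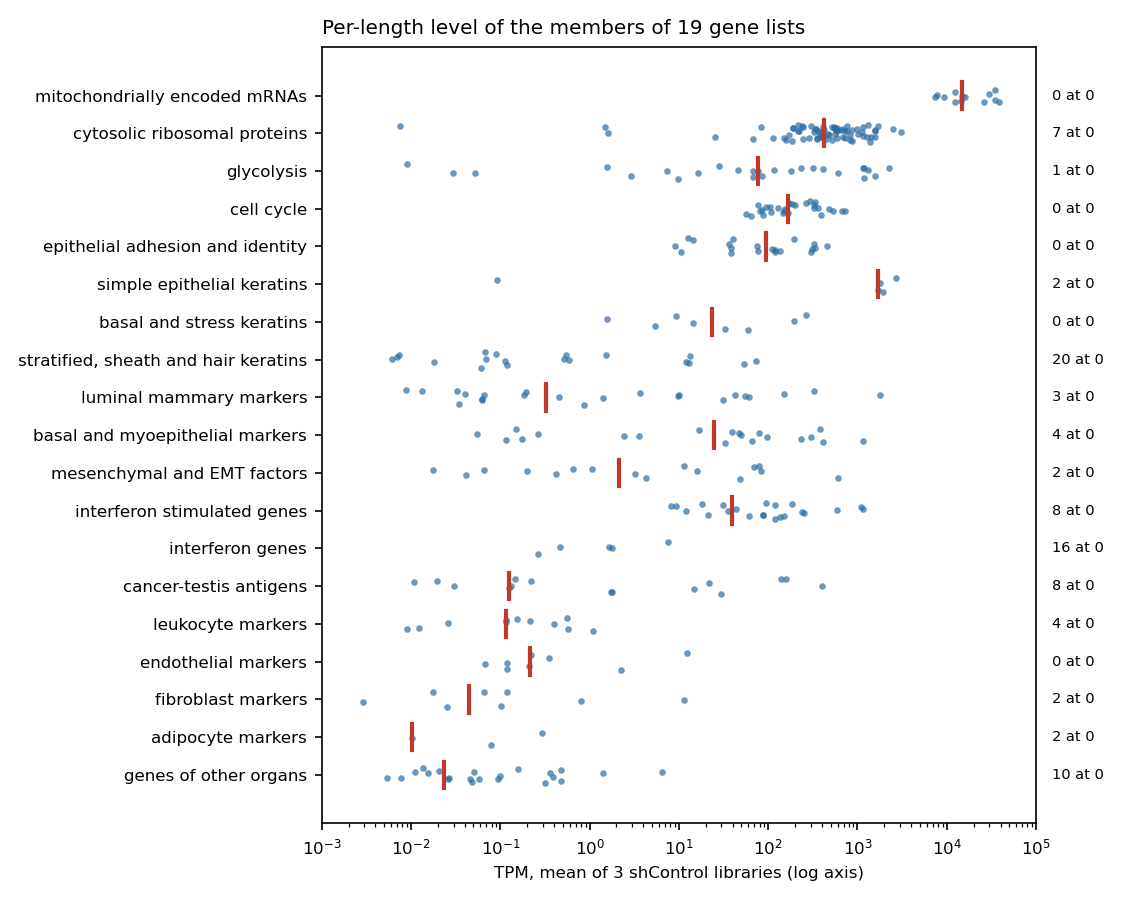
Mean TPM over 3 shControl libraries (x axis, log scale) of the members of 19 gene lists, 1 point per gene above 0, with the list median as a bar and the number of members at 0 at the right (a list whose median is 0 has no bar). The median stood at 14842 TPM for mitochondrially encoded mRNAs, 1716 TPM for simple epithelial keratins, 23.8 TPM for basal and stress keratins and 0.115 TPM for leukocyte markers.

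Keratins of simple epithelium dominated the filament genes of these cells. The 54 keratins in the table held 0.997% ± 0.0212 of all counts. Per length, simple epithelial keratins summed to 8096 ± 182 TPM and basal and stress keratins to 582 ± 15.7 TPM, a ratio of 13.9 ± 0.0675. Type II chains summed to 3938 ± 50 TPM and type I chains to 4908 ± 154 TPM. The type II to type I ratio was 0.818, 0.787 and 0.804 in replicates 1, 2 and 3.

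Of the 7 simple epithelial keratins 4 were detected. KRT19, an unusually short type I keratin (chromosome 17, 41523617 to 41528308), stood at 2567, 2789 and 2678 TPM in replicates 1, 2 and 3. KRT8 stood at 1911, 1957 and 1942 TPM, and its partner KRT18 at 1729, 1787 and 1781 TPM. KRT7, a type II keratin of glandular and ductal epithelium, stood at 1692, 1726 and 1728 TPM. These 4 keratins did not overlap in their ranges over libraries, but the order rests on the lengths used. With the longest transcript as the length, KRT8 came first at 3601 TPM, followed by KRT19 at 3481, KRT7 at 3097 and KRT18 at 2105 TPM. The KRT8 to KRT18 ratio was 1.1 ± 0.00747 with merged exons, 1.71 with the longest transcript, 3.63 with the median transcript length and 0.906 with only the exon bases outside other genes. KRT20, a keratin of gut epithelium, stood at 0.0484 CPM, and KRT80 and KRT23, both with over 25% shared bases, were listed at 0.

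All 8 basal and stress keratins were detected, at much lower levels. KRT17 stood at 254.2, 272.2 and 260.7 TPM and KRT5 at 188.2, 197.8 and 201.2 TPM, and these ranges did not overlap. KRT16, a keratin of stressed and proliferating epidermis, stood at 59.7 ± 2.86 TPM and KRT14, the basal partner of KRT5, at 33.1 ± 1.98 TPM. The KRT5 to KRT14 ratio was 5.54, 6.42 and 5.84 in replicates 1, 2 and 3, with a mean of 15.4 under the median transcript length. The KRT5 to KRT17 ratio was 0.746 ± 0.0231. KRT15 stood at 9.31 TPM. KRT6A, KRT6B and KRT6C stood at 14.5, 5.46 and 1.56 TPM, but these 3 genes share sequence, which leaves each single value uncertain.

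Of 39 stratified, sheath and hair keratins 6 were detected and 20 were at 0, 14 of these with under 25% shared bases. KRT10, a keratin of the upper epidermis, was the highest at 72.8 ± 2.37 TPM. As 67.1% of its exon bases are shared, this level is uncertain: it became 204.4 TPM with only the bases outside other genes and 33 TPM with the median transcript length. KRT86 and KRT83, keratins of hair, stood at 52.9 and 13.04 TPM, and near-identical copies make both uncertain. KRT34, a hair keratin, stood at 12.2, 13.8 and 14.4 TPM and KRT9, a keratin of palm and sole epidermis, at 10.6, 12.8 and 12.2 TPM. KRT1, the epidermal partner of KRT10, was at 0 in all 3 libraries and has under 25% shared bases.

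**Figure D3:**
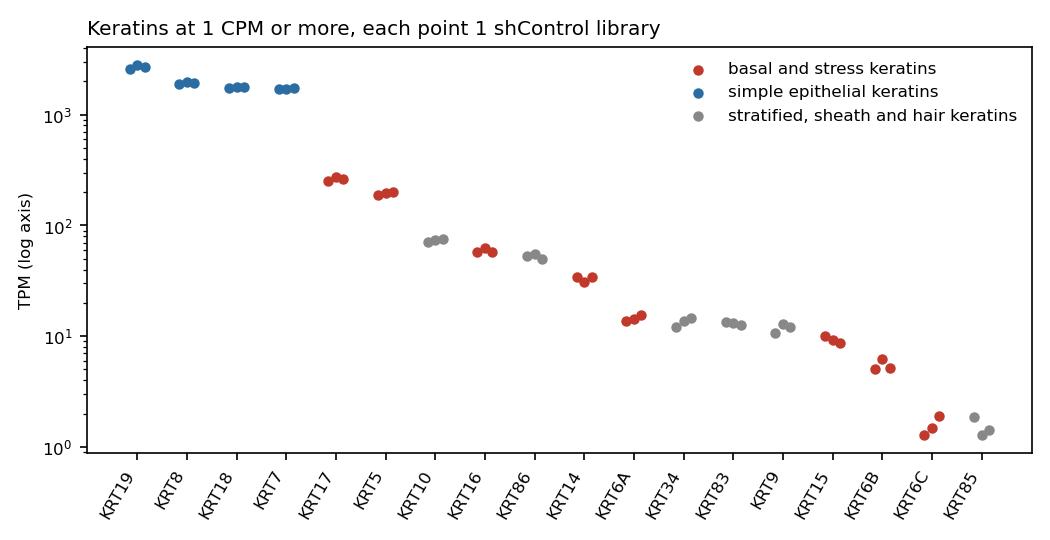
TPM (y axis, log scale) of each keratin at 1 CPM or more, with 1 point per shControl library, coloured by keratin class and ordered by level. The 4 simple epithelial keratins lie between 1692 and 2789 TPM, and the highest basal keratin, KRT17, between 254.2 and 272.2 TPM.

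The filament genes outside the keratins were led by nuclear lamins. LMNA, the A-type lamin, stood at 508 TPM, LMNB2 at 346 TPM and LMNB1 at 175 TPM. VIM, vimentin, the filament protein of mesenchymal cells, stood at 65.6, 74.2 and 70.3 TPM, although 41.5% of its exon bases are shared. DES, NES and GFAP, filament genes of muscle, neural progenitors and glia, each stood below 0.5 CPM.

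Among receptors of the tyrosine kinase class EPHA2, AXL, EGFR, MET and DDR1 were the highest under each of 4 gene lengths, in an order that changed with the length. Of 58 such receptors 34 (58.6%) were detected, a share close to that of all protein-coding genes, 59.9%. EPHA2, an ephrin receptor, stood at 503.0, 450.7 and 489.7 TPM, AXL, a receptor for GAS6, at 448.3, 462.2 and 468.1 TPM, and EGFR at 416.9, 395.4 and 424.1 TPM. The ranges of EPHA2 and AXL overlapped, and those of AXL and EGFR did not. MET, the receptor of hepatocyte growth factor, followed at 271.5 ± 2.87 TPM and DDR1, a collagen receptor, at 167.7 ± 3.98 TPM. With the longest transcript as the length the order became EGFR at 406.4, EPHA2 at 390.4, AXL at 386.7, DDR1 at 285.3 and MET at 222.8 TPM. With the median transcript length it became DDR1 at 745.6, MET at 712.9, EPHA2 at 685.5, EGFR at 659.3 and AXL at 264.98 TPM.

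Within the EGFR family the order was the same under each of 4 gene lengths. EGFR at 412.2 ± 14.9 TPM was followed by ERBB2 at 40.7 ± 1.18, ERBB3 at 22.9 ± 0.719 and ERBB4 at 0.214 ± 0.0314 TPM. ERBB2 and ERBB3 were nearly level with the median transcript length, at 103.2 and 102.9 TPM. The EGFR to ERBB2 ratio was 10.3, 9.98 and 10.1 in replicates 1, 2 and 3, but its mean was 6.17 with the longest transcript and 6.39 with the median transcript length. ERBB4 rested on 34, 50 and 58 counts. Of 11 ligands of the family 8 were detected. AREG, amphiregulin, was the highest at 278.1, 265.1 and 283.5 TPM, followed by TGFA at 96.2, 101.6 and 103.6 TPM and EREG, epiregulin, at 65.1, 55.5 and 64.2 TPM. Their ranges did not overlap. EGF itself stood at 2.35 TPM and NRG1, a ligand of ERBB3, at 3.32 TPM.

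The protein-coding neighbours of EGFR were mostly expressed. Within 1 Mb of the gene, CCT6A, a chaperonin subunit, stood at 1157 ± 19.96 CPM, CHCHD2, a mitochondrial protein, at 818 ± 27.97 CPM and VOPP1 at 342 ± 2.08 CPM. SEC61G, a subunit of the translocon, stood at 163 ± 4.11 CPM and LANCL2 at 120.3 ± 0.161 CPM. Of 10 neighbours with under 25% shared bases 9 were detected, against 66.6% of all such protein-coding genes. NUPR2, with 0% shared bases, was at 0. VSTM2A, with 34.7% shared bases, and ZNF713 and MRPS17, with all of them shared, were listed at 0, which cannot be read as absence. Copy number was not measured.

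Of the hormone receptors of luminal breast cancer, ESR1 was detected at a modest level and PGR was not detected. ESR1, the estrogen receptor alpha gene (chromosome 6, 151656691 to 152129619), stood at 14.3, 13.8 and 15.5 CPM and at 3.65 ± 0.256 TPM. The median protein-coding gene stood at 3.77 TPM and 5.5 CPM. ESR1 was thus close to it per length and above it by CPM. As 32.4% of the exon bases of ESR1 are shared, its level is uncertain. PGR, the progesterone receptor gene, rested on 4, 2 and 4 counts and stood below 0.3 CPM. Of 48 nuclear receptors 31 (64.6%) were detected, against 59.9% of all protein-coding genes. NR2F2, the orphan receptor COUP-TFII, was the highest nuclear receptor under each of 4 gene lengths, at 266.1, 269.2 and 278.9 TPM. PPARD and PPARG, receptors for fatty acids, stood at 170.9 ± 5.95 and 91.1 ± 5.53 TPM. NR0B1 was at 0 in every library and has under 25% shared bases.

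**Figure D4:**
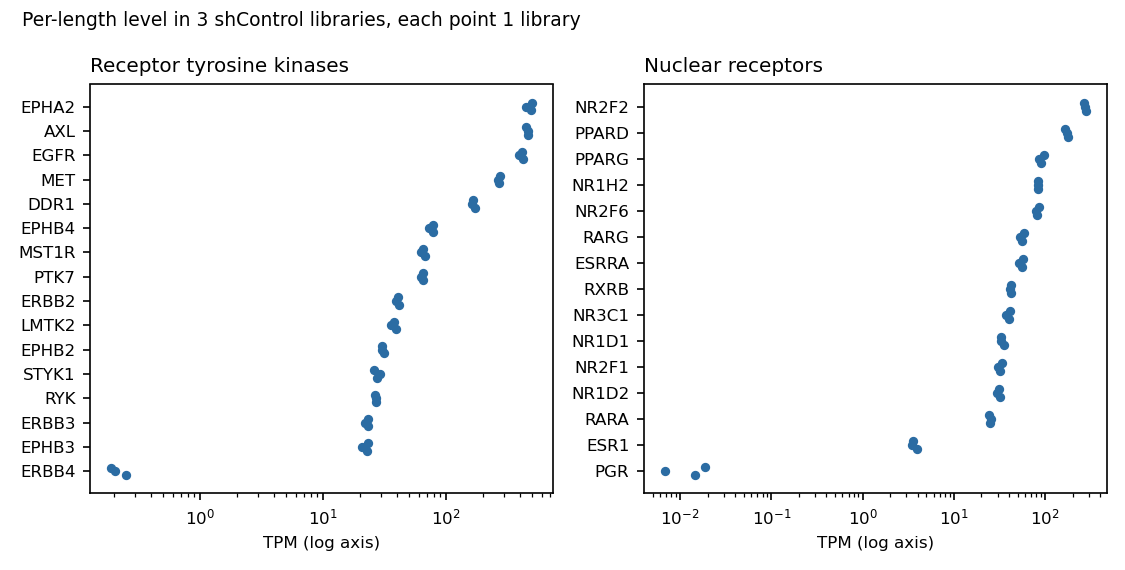
TPM (x axis, log scale) of receptor tyrosine kinases (left, the 15 highest and ERBB4) and nuclear receptors (right, the 13 highest with ESR1 and PGR), with 1 point per shControl library. EGFR lies between 395.4 and 424.1 TPM, ESR1 has a mean of 3.65 TPM, and PGR has a mean of 0.0134 TPM.

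Markers of both mammary lineages were present in part. Of 26 luminal markers 12 (46.2%) were detected, below the 59.9% of all protein-coding genes. CD24, a surface glycoprotein, led at 1769 TPM, with EPCAM at 324 ± 5.92 TPM. GATA3, a factor of luminal cells, stood at 149.1, 146.6 and 151.8 TPM. CD24 has near-identical copies in the genome, so its count is uncertain. FOXA1, a pioneer factor for ESR1, stood at 42.4 ± 1.35 TPM. The estrogen target TFF1 stood at 0.031 CPM, and the milk protein genes CSN2, CSN3 and LALBA were at 0 with under 25% shared bases.

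Of 24 basal and myoepithelial markers 15 (62.5%) were detected, a share near the 59.9% of all protein-coding genes. Among these markers were LAMB3 and LAMA3, which encode chains of the anchoring laminin of epithelial basement membrane. LAMB3 stood at 1164 ± 57.96 TPM and LAMA3 at 96.7 ± 1.84 TPM. The LAMB3 to LAMA3 ratio was 12.3, 11.5 and 12.3, but its mean was 1.78 with the median transcript length. CDH3, P-cadherin, stood at 304 TPM and ITGB4, the hemidesmosome integrin chain, at 227.3, 230.9 and 245.6 TPM. Of the exon bases of ITGB4 34.5% are shared. The basal regulator TP63 was not detected, at 24, 45 and 32 counts or 0.568 ± 0.104 CPM. Contractile genes were divided. TAGLN, transgelin, stood at 18.8 ± 0.668 CPM and MYLK, a myosin light chain kinase with 56.6% of its bases shared, at 22.6 ± 0.68 CPM, whereas CNN1, a calponin, stood at 0.045 CPM and MYH11, a smooth muscle myosin chain with 49.4% shared, at 0.699 CPM. ACTA2, smooth muscle actin, was at 0.151 CPM, and as all its exon bases are shared this cannot be read as absence. OXTR, NGFR, SOX9 and SOX10 were listed at 0, each with at least 95% shared bases, so their zeros cannot be read as absence.

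Epithelial adhesion genes were detected throughout, 20 of 20, with a median of 94.5 TPM. JUP, plakoglobin, led at 458 TPM, DSP, desmoplakin, stood at 334 TPM and CDH1, E-cadherin, at 304.5, 313.6 and 320.7 TPM. N-cadherin, CDH2, rested on 48, 57 and 58 counts. The CDH1 to CDH2 ratio was 431, 516 and 488, with a mean of 190.6 under the median transcript length.

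Of 18 mesenchymal genes and factors 11 (61.1%) were detected, near the 59.9% of all protein-coding genes. FN1, fibronectin, was the highest at 592.8, 607.2 and 618.5 TPM and among the 20 most abundant protein-coding genes by CPM, at 3018 ± 52.1 CPM. COL5A1 stood at 82.5 TPM and SNAI2, a repressor of CDH1 also used by basal cells, at 78.3 ± 0.375 TPM. ZEB1, another repressor of epithelial genes, stood at 1.07 TPM, and ZEB1 was at 0.00966 ± 0.000173 of the level of GRHL2, an activator of epithelial genes. Integrin chains were led by ITGB1 at 1065 TPM, ITGA3 at 301 TPM and ITGB4. COL3A1 stood at 0.0348 CPM.

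Interferon stimulated genes were expressed while interferon genes had few or no counts. Of 30 interferon stimulated genes 22 were detected, and the other 8, IFIT1, IFIT2, IFIT3, IFITM1, IFITM3, OAS2, OAS3 and IRF9, were listed at 0 with at least 95% shared bases each. ISG15, a ubiquitin-like protein, stood at 1176, 1124 and 1138 TPM. IFI6 stood at 1082 ± 12.7 TPM and BST2, tetherin, at 597 ± 10.2 TPM. Of 21 interferon genes 1 was detected, the type III interferon IFNL1, at 1.72, 1.86 and 1.95 CPM from 82, 122 and 122 counts. IFNB1 rested on 6, 8 and 6 counts. Among 13 IFNA genes with under 25% shared bases 12 were at 0, and the remaining gene, IFNA1, rested on 2, 6 and 4 counts. The IFNA genes are close copies of one another, so their zeros cannot be read as absence. Receptors for these ligands were present, with IFNAR1 at 18.2 TPM and IFNLR1 at 5.51 TPM.

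Antigen presentation genes of class I were mostly high, and class II chain genes were low. HLA-B stood at 533, 530 and 530 TPM, B2M, the shared light chain, at 402.1 ± 5.66 TPM and TAPBP, tapasin, at 386 TPM. The checkpoint ligand CD274, known as PD-L1, stood at 51.9, 50.6 and 51.7 TPM. HLA-DRA, a class II chain, stood at 0.222 CPM and CIITA, the class II activator, at 0.504 CPM. As 46.7% of the exon bases of CIITA are shared, its level is uncertain. The class II chain HLA-DQB1 was detected, at 2.45 ± 0.421 CPM. CD74, the class II invariant chain, was higher, at 33.3 ± 0.707 CPM and 36.3 TPM. TAP1 and TAP2 were listed at 0 with at least 95% shared bases.

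Among 26 surface proteins targeted in the clinic 21 were detected. F3, tissue factor, stood at 1145, 1151 and 1174 TPM and LY6E at 768 TPM. NECTIN4 stood at 8.47 ± 0.539 TPM. FOLR1, CEACAM5 and CEACAM6 were listed at 0 with at least 95% shared bases. The list of cytokines and growth factors, which leaves out the EGFR ligands, was led by DKK1, a Wnt antagonist, at 182.6, 165.4 and 169.1 TPM and INHBA, the activin A chain, at 155.4 ± 3.82 TPM. LIF stood at 109.7 TPM. CSF2, known as GM-CSF, stood at 15.8 ± 1.69 TPM, and CXCL5 and HGF were at 0.

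Some germline-restricted genes were expressed. Of 23 cancer-testis antigen genes with a row, 8 were detected, and 6 of the 8 at 0 had under 25% shared bases. XAGE1A stood at 124.6, 131.9 and 118.6 CPM, MAGEA3 at 82.8, 79.7 and 84.4 CPM and MAGEA6 at 73, 76.4 and 74.6 CPM. SPANXB1, a sperm protein gene (chromosome X, 141002591 to 141003706), reached 1633, 1707 and 1559 TPM and ranked 37 among protein-coding genes on that scale. All 4 genes belong to families of near-identical copies, so the split of counts within each family is uncertain. MAGEA4, CTAG1A, CTAG1B, CTAG2, GAGE1 and SSX2 were at 0. CTAG1A and CTAG1B are near-identical copies of each other, and GAGE1 and SSX2 also have near-identical copies. The handling of reads that match several genes is not known, so zeros of genes with such copies cannot be read as absence.

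Proliferation genes were all detected, 28 of 28, with a median of 168 TPM. UBE2C, a ubiquitin-conjugating enzyme of mitotic exit, led at 722 TPM, PCNA, the replication clamp, stood at 678 TPM and MKI67, a proliferation marker, at 259.4, 262.8 and 275.9 TPM. Of 36 growth control genes 30 were detected. CCND1, cyclin D1, stood at 376.6, 387.1 and 386.7 TPM, with 29% of its bases shared. CDKN1A stood at 176 TPM and RB1 at 52.9 ± 1.11 TPM. CDKN2A, CDKN2B, MTAP and CDK2 were listed at 0, each with at least 95% shared bases, so the 9p21 genes cannot be read here. Of the 19 protein-coding neighbours of CDKN2A with under 25% shared bases, 3 were detected and 13, all of them interferon genes, were at 0. Most of these zeros are of IFNA genes, which are close copies of one another, so they cannot be read as absence. Of all protein-coding genes with under 25% shared bases 66.6% were detected and 10.9% were at 0. FOCAD stood at 18.5 ± 1.15 CPM, KLHL9 at 9.21 ± 0.942 CPM and DMRTA1 at 1.88 ± 0.415 CPM. The other 3 were HACD4 at 0.286 ± 0.202 CPM and IFNB1 and IFNA1 at 0.115 and 0.0659 CPM.

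The most abundant transcripts served respiration, the cytoskeleton and translation. The 50 most abundant rows held 18.9% ± 0.228 of counts. Mitochondrially encoded mRNAs were first on the per-length scale, with MT-CO2 at 38253 ± 343 TPM and MT-CO1 at 34738 ± 248 TPM, both subunits of cytochrome c oxidase. Among nuclear protein-coding genes the highest were ACTB and ACTG1, the cytoplasmic actins, at 10644 ± 304 and 5042 ± 126 TPM. FTL, ferritin light chain, followed at 4528 ± 138 TPM, EEF1A1 at 4033 ± 59.4 TPM and HMGA1, an architectural chromatin protein, at 3699 ± 37.8 TPM. By CPM, large cytoskeletal proteins also ranked high: FLNA, filamin A, at 4637.5 CPM, PLEC, plectin, at 4469.5 CPM and MYH9, a nonmuscle myosin chain, at 3316 CPM. THBS1, thrombospondin 1, stood at 4382 ± 76.1 CPM, although 79.2% of its exon bases are shared.

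Glycolysis genes were detected in 23 of 27 cases, led by GAPDH at 2268 TPM, ENO1 at 1585 TPM and ALDOA at 1298 TPM, although 99.1% of the exon bases of ALDOA are shared. The LDHA to LDHB ratio, of the subunits of lactate dehydrogenase, was 6.06, 6.47 and 6.58, with a mean of 12.6 under the median transcript length. It is uncertain because 94.2% of the exon bases of LDHB are shared, against none of LDHA. Among S100 genes 10 of 20 were detected, with S100A10, a partner of annexin A2, at 1293 TPM. S100A9 stood at 184 TPM and its partner S100A8 at 0.54 TPM.

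Replication-dependent histone genes and short structured RNAs were scarce, but mitochondrial rRNAs were not. The 2 mitochondrial rRNAs held 0.533% ± 0.0186 of counts, with MT-RNR2 at 4584 ± 169 CPM. Of 90 replication-dependent histone genes 27 were detected, with a summed level of 162 CPM. HIST1H2BK was the highest at 23.9 CPM. Of 22 short structured RNAs 4 (18.2%) were detected, summing to 9.57 CPM, but 9 of the 11 at 0 had at least 95% shared bases. Over all genes of such types, 0.268% of snoRNA, 0.275% of snRNA and 0.0961% of misc_RNA genes were detected. Of 2195 lincRNA genes 259 (11.8%) were detected. NORAD was the highest of them by CPM, at 422.5 ± 7.67 CPM, and stood at 269.8, 273 and 282.8 TPM. On the per-length scale the short AC024560.3, with 349 bases, and AC138035.2, with 727 bases of which 48.1% are shared, stood above it at 347.9 ± 12.4 and 310.01 ± 21.2 TPM. MALAT1, a nuclear RNA, stood at 67.2, 58.5 and 64.1 TPM. No source used here says whether poly-A selection was used.

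Promoter sequences of a few members are shown because many abundant translation genes share a start motif, with KRT8, KRT5 and the silent CSN2 for contrast. Many genes of the translation apparatus begin with a C followed by a run of pyrimidines, the terminal oligopyrimidine motif through which their mRNAs are regulated together. The stretches below, from RefSeq on GRCh38.p14, run from 50 bases before the annotated start through the first 10 transcribed bases. Capitals mark the letters TATAAA wherever they occur, and the run of C and T at the start where it opens with C and at least 4 more pyrimidines.
EEF1A1 (chr6:73521023-73521082, minus strand): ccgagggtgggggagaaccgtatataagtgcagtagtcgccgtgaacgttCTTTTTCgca
EEF2 (chr19:3985454-3985513, minus strand): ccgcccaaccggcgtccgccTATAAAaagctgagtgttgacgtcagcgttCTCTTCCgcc
RPS12 (chr6:132814519-132814578, plus strand): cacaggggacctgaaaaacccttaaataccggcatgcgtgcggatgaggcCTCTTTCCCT
KRT8 (chr12:52926460-52926519, minus strand): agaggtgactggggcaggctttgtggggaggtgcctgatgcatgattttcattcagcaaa
KRT5 (chr12:52520385-52520444, minus strand): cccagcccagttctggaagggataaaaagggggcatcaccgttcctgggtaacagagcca
CSN2 (chr4:69965719-69965778, minus strand): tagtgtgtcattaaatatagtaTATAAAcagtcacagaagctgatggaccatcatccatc

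EEF1A1, EEF2 and RPS12 stood at 6899, 3682 and 306.6 CPM, and CSN2 was at 0. The windows of 300 bases around these starts held 24, 41 and 27 CG pairs for the translation genes and 2, 7 and 2 for KRT8, KRT5 and CSN2. The KRT8 start shown lies inside the span of that gene, 52897187 to 52949954. It may not be the start behind most KRT8 counts, and this was not tested. Over protein-coding genes with under 25% shared bases and a promoter sequence (11162 of 13524, outside chromosomes 8, Y and M), 711 (6.37%) had the oligopyrimidine start at any annotated start. Among cytosolic ribosomal protein genes, which had a median of 418 TPM, 37 of 48 (77.1%) had it. Among the 200 highest genes by TPM, 46 of the 166 with a sequence (27.7%) had it. The letters TATAAA were sought on the sense strand, between 45 and 15 bases before the start. They were found in 472 of the 11162 genes (4.23%), in 172 of 7706 detected genes (2.23%) and in 135 of 1156 genes at 0 (11.7%). Of the 166 genes with a sequence among the 200 highest, 11 (6.63%) held them, as did 1 of 48 ribosomal protein genes. KRT8 and KRT5, which lack TATAAA at the starts shown, do not stand for the keratins. Of the 26 keratins with a sequence 14 held these letters, KRT34 among them. As 26 of 40 (65%) had a sequence, no share is given for the family. The median number of CG pairs was 26 in detected genes and 22 in all of them. A match of letters describes the sequence only.

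Some gene families were nearly silent. Among genes with under 25% shared bases, where 10.9% were at 0, 256 of 286 olfactory receptor genes (89.5%) were at 0, and the highest stood at 0.41 CPM. Late cornified envelope genes were at 0 in 17 of 18 cases and PRAMEF genes in 19 of 22. Many PRAMEF genes are close copies of one another, so their zeros are uncertain. By contrast, 8 of 335 genes with ZNF symbols (2.39%) were at 0. SPARC, an extracellular matrix gene, was at 0 with 14.3% shared bases.

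The 3 libraries agreed closely. Over the 13519 detected rows the median coefficient of variation (CV, the SD over the mean) was 4.15%. The CV fell with level, from a median of 12.9% between 1 and 3 CPM to 2.93% between 30 and 100 CPM and 1.86% at 1000 CPM and above. Counting error alone gives 9.9%, 1.81% and 0.307% at these levels if each count is an independent read. In each library 85.8% to 86.9% of the counts between 1 and 50 were even, as when both reads of a fragment are counted, and counting error would then be 14%, 2.56% and 0.435%. Between 1 and 3 CPM the median spread lay between both errors in number, and in each class from 3 CPM up it exceeded both. Between 3 and 10 CPM it was 7.82%, against 7.75% for fragments. A median CV over 3 libraries tends to lie below the true CV, whereas the errors given are expected values. A median below the error of fragments therefore does not show a spread smaller than counting error. The biological coefficient of variation estimated by edgeR, the spread beyond the counting error of independent reads, was 3.75%, and 2.62% with halved counts. Its trend with level ran from 15.6% at 1 CPM and 5.64% at 10 CPM to 2.79% at 100 CPM and 2.62% at 1000 CPM. Among genes of at least 10 CPM, 0 rows differed by over 2-fold between any pair of libraries and 3 rows differed by over 1.5-fold between replicates 1 and 2.

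**Figure D5:**
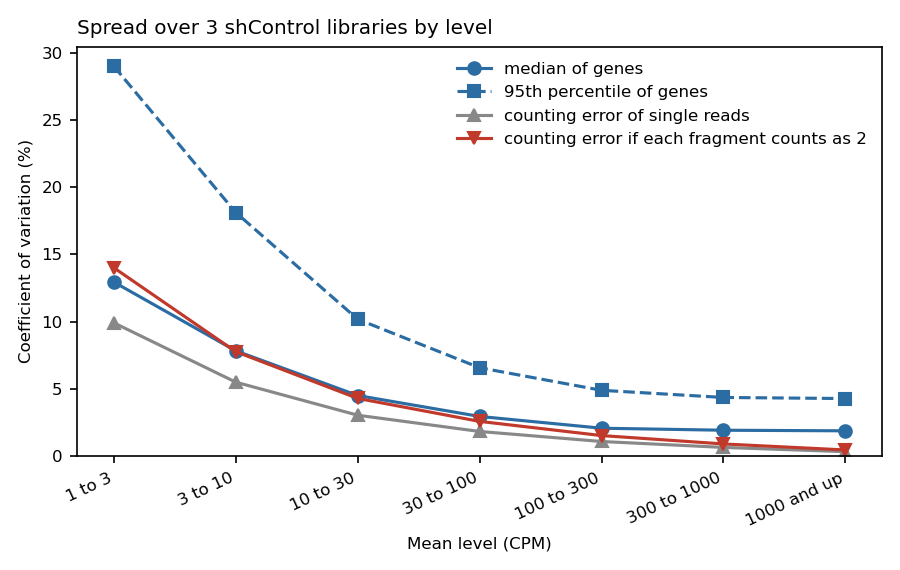
Coefficient of variation over the 3 shControl libraries (y axis, %) by mean level (x axis, CPM): the median and the 95th percentile of genes, and the median counting error for independent reads and for fragments counted as 2 reads. The median falls from 12.9% to 1.86%.

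The 8 protein-coding genes of highest CV at 10 CPM or more shared a pattern, being highest in replicate 1 and lowest in replicate 2. MYH15, a myosin heavy chain, stood at 48.5, 29.1 and 35.4 CPM in replicates 1, 2 and 3, a CV of 26.4%. TNFSF15, a cytokine of the TNF family, stood at 22.7, 13.5 and 17.1 CPM and SLCO4A1, an organic anion transporter, at 23.7, 14.8 and 18.95 CPM. ALPP, AGFG2, SHISA2 and AKR1B1 had CVs between 17.5% and 19.5%. AKR1B1, aldose reductase, stood at 698.9, 493.4 and 580.6 CPM. Replicate 3 lay between the other libraries for each of the 8 genes. Among the 200 genes of highest CV, replicate 1 was the library farthest from the median in 84 and replicate 2 in 85, against 31 for replicate 3. Over all 8644 genes these shares were 35.1%, 36.6% and 28.2% for replicates 1, 2 and 3, so replicate 3 was the least often farthest there too. The 8 genes of lowest CV were GTPBP2, EIF3B, DEPDC1B, GBP1, CPSF1, SLK, LRBA and GSK3A, with CVs of at most 0.104%. EIF3B, a subunit of an initiation factor, stood at 397.2, 396.9 and 396.9 CPM. These values lie below counting error, and the genes were picked as the extreme of 8644.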

How the data were processed

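RNA of 3 shControl libraries of BT20 cells was analysed. The authors deposited 1 table of whole-number read counts per gene symbol. Per the submitters' processing notes, the tools were cutadapt, STAR, SAMtools and Cufflinks with genome build GRCh38. No source used here names the counting tool, the annotation, the strand setting or the handling of multimapping reads. The 27 date rows (0.171% to 0.172% of counts) were left out. Of the 56478 other symbols, 37252 matched GENCODE release 29 on GRCh38, 462 matched through RefSeq synonyms (GRCh38.p14), 57 matched several genes and 18707 were not matched. Coordinates and lengths come from that release. CPM used total counts, and TPM used merged exon lengths of matched genes. Shared bases are merged exon bases inside the span of any other gene of release 29, on either strand. Values of genes with close copies, overlaps or antisense partners are therefore uncertain. Means and SDs are over 3 libraries. No group comparison was made. Spread was estimated with edgeR 4.0.16 (R 4.3.3, TMM, filterByExpr) and checked on simulated counts. The simulated counts had no excess of even values, so this check does not cover counts of both reads of a fragment. Tables were made in Python 3.11.15 with pandas 2.3.3. The members and the 35 gene lists were chosen with earlier results of these data known. The genes named are the most abundant ones, the leading genes and zeros of each list, the extremes of CV, the markers, genes within 1 Mb of EGFR and CDKN2A, and partners for contrast; a few of them are not reported here. Alternatives were other detection levels, TMM and RLE scaling, other gene lengths, halved counts and leaving out each replicate.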

Additional observations from a re-analysis of the deposited data

How the results depend on the processing

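No paired analysis was possible because 1 group was described and no test was made. Alternatives on shared bases, ratios by length, 6 counts and halved counts were added after seeing the data. The count of detected rows (13519) lay between 13200 and 15055 over its alternatives on the same rows. Among only the protein-coding genes with under 25% shared bases, 9377 were detected. The 3558 protein-coding genes at 0 became 4403 at or under 3 counts, 5199 at or under 6 counts and 1533 with under 25% shared bases. The share held by the 50 most abundant rows was 18.4% over protein-coding genes only and 37.5% on the per-length scale, against 18.9%. The median CV of 4.15% became 3.04% at 10 CPM and above and 13.5% with no filter beyond 1 count, and lay between 3.22% and 3.62% without each replicate. A median CV over fewer libraries tends to be lower, so the values without a replicate cannot be set against 4.15%. The biological coefficient of variation of 3.75% became 2.62% with halved counts and lay between 3.27% and 4.39% without each replicate. The highest value came without replicate 3. For 197 named genes CPM with TMM lay between 0.995 and 1.01 times the reported level. Per-length levels moved by over 1.5-fold for 18 of 193 named genes with the longest transcript and for 150 of 193 with the median transcript, and 10 of 14 ratios between genes did so with the median transcript, so orders of genes between classes of length are uncertain. Depth limits statements on genes under 6 counts, between 0.0917 and 0.126 CPM.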

Other observations

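Of 28 long noncoding RNAs in the list 23 (82.1%) were detected, against 11.8% of all lincRNA and 12.7% of all antisense genes. The list was chosen with earlier results known, so its share does not describe long noncoding RNAs in general. UCA1, an RNA studied in carcinomas, stood at 55.2, 42.5 and 48.2 CPM, with 88.6% of its bases shared, and MIR205HG, the host gene of miR-205, at 13.1 CPM. HOTAIR rested on 204, 237 and 234 counts, and H19 stood at 0.881 CPM. Among lincRNA genes 1072 of 2195 (48.8%) were at 0.

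Unmatched and near-identical rows were among the most abundant ones outside the protein-coding genes. The 4 rows with clone names that begin with CH507 held 1.57% ± 0.0395 of counts. EEF1A1P5, a processed pseudogene of EEF1A1, stood at 1695 ± 38.9 CPM and RPL41P1, with 81 bases, at 295.6 CPM. Per length, EEF1A1P5 stood at 4243 TPM, above EEF1A1. RPL41P1 stood at 12689 TPM, above ACTB.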
